A study of Schmidtea mediterranea with 15 samples.

Results

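A set of 114 transcript models, of 26671 measured in whole planarians, fell moderately 24 h after gamma irradiation and had regained part or all of the lost level by 96 h. They were chosen from the mean RPKM (reads per kilobase of model length, relative to the reads of the library) at 0, 24 and 96 h. Changes in these means are given as log2((mean + 0.5)/(0 h mean + 0.5)), with 0.5 RPKM as pseudocount. A model was taken when its change at 24 h was above -2 and at most -0.7, and its change at 96 h was above -1. The difference between these changes, called the return here, had to be at least 0.7, and the 0 h mean at least 2 RPKM. The fall and the return are thus how the models were chosen and are described without a test. The libraries of 48 and 72 h had no part in the choice.

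The animals were CIW4 worms of Schmidtea mediterranea, a clonal planarian stock, 2 to 3 mm long and unfed for 1 week or more. Worms taken 24, 48, 72 and 96 h after a dose of 6000 rad, given at 85 rad per minute, were compared with unirradiated worms (0 h). Each time had 3 libraries of polyA RNA from whole animals, 15 in all. The labels do not tell whether the libraries of a time came from separate cultures of worms, and p-values cover the spread between these libraries alone, which may be technical. Unirradiated worms were sampled at 0 h only, so irradiation, elapsed time and handling cannot be told apart.

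Planarians renew their tissues from neoblasts, which are the dividing cells of the adult body and include its stem cells. A high dose of ionising radiation kills neoblasts and so ends the supply of new differentiated cells, while existing differentiated tissue lasts longer. Transcripts made mainly in neoblasts or in their short-lived progeny are known to fall after such a dose and to stay low. In RNA from whole animals, fewer cells of a type and less RNA per cell cannot be told apart. The IDs in the files carry no gene names, so the models are described by level, timing and length, and 4 of them by ID.

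Some libraries stood apart from the others of their time in these models. For each library, the median over the 114 models of log2((RPKM + 0.5)/(0 h mean + 0.5)) was taken. It was -0.02, -0.01 and 0.01 in replicates 1, 2 and 3 of 0 h. At 24 h it was -1.11, -0.77 and -0.81, so replicate 1 lay below the other libraries of its time. At 48 h it was -0.29, -0.25 and 0.13, and replicate 3 alone stood above the unirradiated level. At 72 h it was -0.08, -0.27 and -0.10, with replicate 2 the lowest. At 96 h it was 0.24, 0.20 and 0.16, so all 3 libraries were above 0 and close together. The 24 h libraries did not overlap with those of any other time by this measure, whereas those of 48 and 72 h overlapped. Results that rest on the 3 libraries standing apart are given below with and without them. These libraries were picked because they were low or high in these same models. Leaving them out thus lowers the 48 h levels, raises those of 24 and 72 h and narrows the spread by the pick itself. Values without them show only how far results rest on these libraries.

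**Figure D1:**
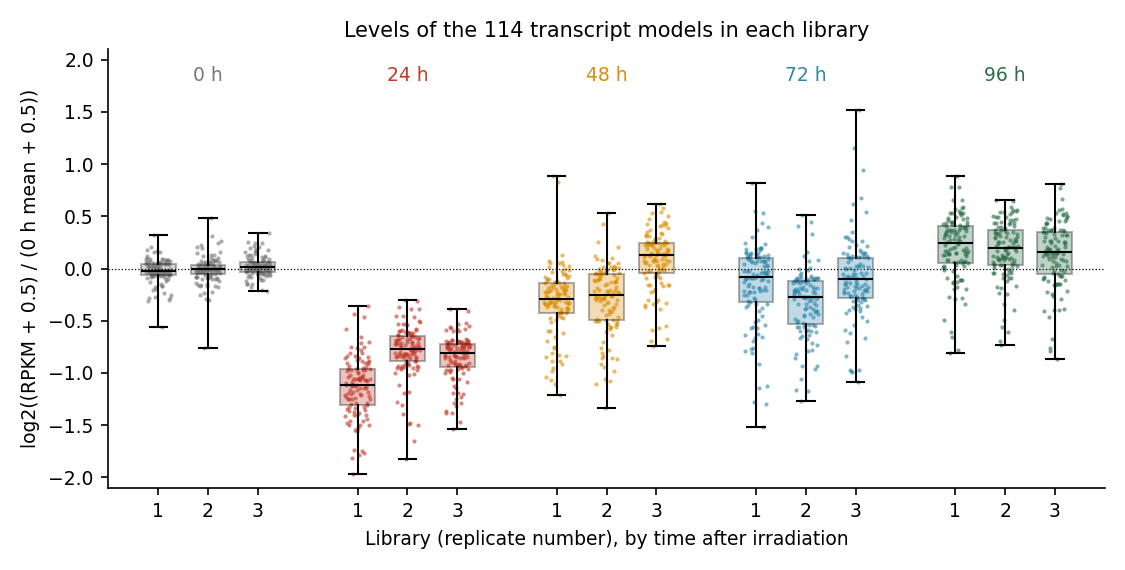
Levels of the 114 models in each of the 15 libraries as log2((RPKM + 0.5)/(0 h mean + 0.5)), by time after irradiation and replicate number. Points are models, boxes their quartiles with the median as a line, and whiskers reach the lowest and highest model. Replicate 1 of 24 h (median -1.11) lies below, and replicate 3 of 48 h (median 0.13) above, the other libraries of its time, while the libraries of 0 h and of 96 h lie close together.

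A fall of the same kind at 24 h, with the same limits on its size and on the 0 h level, was found in 832 models, of which the 114 are 13.7%. The other 718 are the models set beside them here. Over all 832, the return had a median of 0.01, a lower quartile of -0.19 and an upper quartile of 0.31. It was below 0 in 407 models, from 0 to below 0.35 in 230, from 0.35 to below 0.7 in 81 and 0.7 or more in 114. Values ran on across the limits on the return, on the smallest fall and on the 0 h level. The returns nearest the limit were 0.709 and 0.720 inside and 0.696 and 0.692 outside. The falls nearest the limit were -0.704 and -0.705 inside, and -0.70 (above the limit before rounding) and -0.6995 outside, and 37 more models lay between -0.7 and -0.6. The 0 h means nearest the floor were 2.07 and 2.13 RPKM inside and 1.98 and 1.90 RPKM outside.

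**Figure D2:**
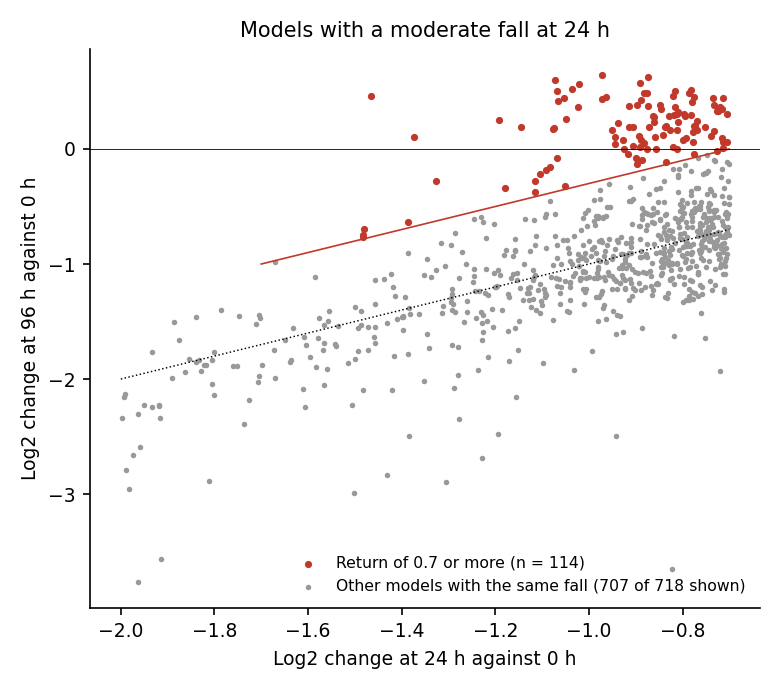
Log2 change of mean RPKM at 96 h against 0 h (vertical) by the change at 24 h against 0 h (horizontal) for models with a moderate fall at 24 h. Red points are the 114 models with a return of at least 0.7, the limit drawn as a red line, and 92 of them lie above 0 on the vertical axis. Grey points are the other 718 models, of which those below the lower end of the axis are not drawn, and the dotted line marks equal changes at both times.

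At 24 h, the changes of the 114 models ranged from -1.48 to -0.70 with a median of -0.87, and 27 had a change of -1 or less. Mean levels at 24 h ran from 0.907 to 307 RPKM with a median of 6.57 RPKM, against 2.07 to 526 RPKM with a median of 12.2 RPKM at 0 h. At 96 h the changes ranged from -0.76 to 0.65 with a median of 0.19. The mean at 96 h was above the 0 h mean in 92 models, and the change was 0.25 or more in 48. In the other 22 models, whose return was thus partial, the change had a median of -0.17, and it was -0.5 or less in 4. Of the 5 means, that of 24 h was the lowest in 113 models, and that of 96 h was the highest in 87 and that of 0 h in 22. The return itself had a median of 1.05 and reached 1.92.

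Part of the return had taken place by 48 h in nearly all models. The mean at 48 h was above the mean at 24 h in all 114 models, and in 112 when 24 h replicate 1 and 48 h replicate 3 were left out. The median change against 0 h was -0.13 at 48 h, or -0.27 without the libraries standing apart. Limma, fitted to log2(RPKM + 0.5) of all 15 libraries, called 93 of the 114 models (81.6%) higher at 48 h than at 24 h at an adjusted p below 0.05. It called 76 without the libraries standing apart, a fit for which no share over all tested models is given. In the fit of all 15 libraries, 6.80% of the 21231 tested models were called higher and 6.28% lower. None of the 114 was called lower in this contrast. At an unadjusted p below 0.05, 0 of the 114 and 2725 of all tested models were lower. The fitted changes ran from 0.05 to 1.95 with a median of 0.75, against a median of 0.00 over all tested models and -0.04 over the 718. The 24 h libraries were used to choose the models as low, so this count is not independent of the choice.

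Between 72 and 48 h, where neither time was used in the choice, few models were called, as was the case among all tested models. Limma called 0 of the 114 higher, where 0.410% of all tested models were called higher, and limma-voom also called 0. At an unadjusted p below 0.05, limma gave 0 of the 114 and 1222 of the 21231 tested models. A single model (0.877%) was called lower, where 1.40% of all were. At the unadjusted p, 2 of the 114 and 1498 of all tested models were lower. The fitted changes ran from -0.42 to 0.72 with a median of -0.05 and quartiles of -0.14 and 0.09. They lay beyond 0.25 in 20 models, 11 higher and 9 lower. The standard error of this change had a median of 0.13 over the 114 models and of 0.097 over all tested models. These changes were thus estimated less precisely, and few calls do not show that levels were stable. Leaving out 24 h replicate 1, 48 h replicate 3 and 72 h replicate 2 gave 5 models called higher and 0 called lower. The way these libraries were picked favours higher calls here. For this fit and for limma-voom, no share over all tested models is given.

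**Figure D3:**
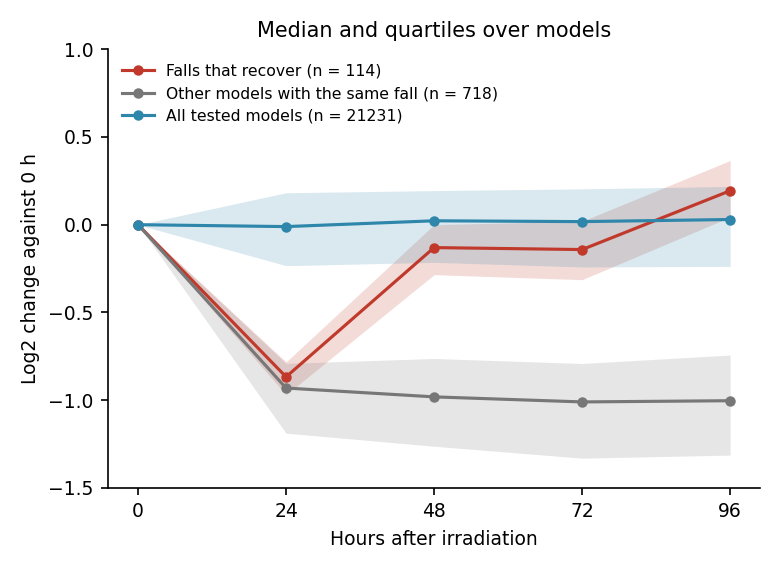
Median log2 change of mean RPKM against 0 h (points and lines), with quartiles over models (shaded), by hours after irradiation. The 114 models had medians of -0.87, -0.13, -0.14 and 0.19 over the 4 irradiated times in order, the 718 other models with the same fall stayed between -0.93 and -1.01, and all tested models stayed near 0.

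Against unirradiated worms, most means were still below the 0 h mean at 48 h (85 of 114) and at 72 h (81 of 114), while the share called lower was near or below that of all tested models. At 48 h, limma called 16 of the 114 (14.0%) lower than in unirradiated worms, where 19.5% of all tested models were. It called 0 higher, where 20.5% of all were. At an unadjusted p below 0.05, 1 of the 114 and 5232 of the 21231 tested models were higher. At 72 h limma called 25 (21.9%) lower, where 21.5% of all were, and 0 higher, where 22.1% of all were. At the unadjusted p, 0 of the 114 and 5468 of all tested models were higher. Of the 718 models, 95.0% were called lower at 48 h and 95.8% at 72 h. The 0 h libraries were used to choose the models, so these counts are not independent of the choice either. Single libraries moved them. Leaving out 48 h replicate 3 turned the 16 into 38, and leaving out 48 h replicate 1 or 2 or 0 h replicate 2 or 3 turned it into 10. The 25 became 12 without 72 h replicate 2. Without all 3 libraries standing apart, 58 of the 114 were called lower for 48 h and 29 for 72 h, and 102 and 69 means were below the 0 h mean. The pick of these libraries by itself lowers the 48 h means and raises those of 72 h. No share over all tested models is given for fits without libraries.

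A further rise separated 96 h from 72 h. The mean at 96 h was above the mean at 72 h in 110 of the 114 models, and the fitted change had a median of 0.33. Limma called 24 models (21.1%) higher, where 1.34% of all tested models were called. At an unadjusted p below 0.05, 69 of the 114 and 1629 of the 21231 tested models were higher. Limma called 0 lower, where 3.60% of all were. At the unadjusted p, 0 of the 114 and 2273 of all tested models were lower. The 96 h libraries were used to choose the models as high, so this count is not independent of the choice. Leaving out 72 h replicate 2 gave 5, leaving out 96 h replicate 1, 2 or 3 gave 7, 5 or 8, and leaving out 48 h replicate 3 gave 37. Without the 3 libraries standing apart it was 35, and limma-voom gave 57. No share over all tested models is given for these other fits, so their counts cannot be set against models at large.

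How often the libraries of 2 times were fully apart differed widely between the contrasts. The rule chose the models as low at 24 h and high at 96 h, so counts that involve 0, 24 or 96 h are set in part by the choice, and those between 72 and 48 h are not. All 3 libraries of 48 h lay above all 3 of 24 h in 100 of the 114 models, where this held for 15.7% of all tested models, and those of 72 h lay above those of 24 h in 98, where it held for 17.4%. Between 72 and 48 h the libraries were apart in 4 models, 2 higher (8.00% of all) and 2 lower (8.70% of all). The 96 h libraries were above those of 72 h in 80 models (11.1% of all). Against the 0 h libraries, those of 48 h were all lower in 16 models (22.8% of all) and all higher in 2 (25.0% of all). Those of 72 h were all lower in 43 (24.0% of all) and all higher in 4 (25.2% of all). Between times that the rule set against each other, the 24 h libraries were all lower than those of 0 h in 112 models (24.9% of all), and the 96 h libraries were all higher than those of 24 h in 114 (22.9% of all). The 96 h libraries were all above those of 0 h in 62 models (28.1% of all) and all below in 15 (25.5% of all).

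The rule was also applied to libraries of 2 replicate numbers, with the left-out number read afterwards. It took 100 models without replicate 1, 147 without replicate 2 and 141 without replicate 3, of which 79, 106 and 102 were among the 114. In the left-out libraries, the change at 24 h was below 0 in 94 of 100, 139 of 147 and 135 of 141 models, with medians of -0.97, -0.71 and -0.75. The return was above 0 in 96, 138 and 134 models, with medians of 1.17, 0.84 and 0.82. Every limit of the rule was met again in the left-out libraries by 67, 64 and 66 models. The level at 96 h was above that at 0 h in 77 of 100, 109 of 147 and 90 of 141 models. Set against a 24 h library that had no part in the choice, the mean at 48 h was higher in 96, 135 and 135 models, with median differences of 0.86, 0.59 and 0.63. Left-out 96 h libraries were above the 72 h mean in 96, 133 and 129 models, with median differences of 0.37, 0.31 and 0.28. No share over all tested models is given beside these counts, so their excess over models at large is not known. The 3 choices overlap and share the same 48 and 72 h means, so they are not independent of each other.

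The models moved together between libraries of one time. Replicate 1 was the lowest 24 h library in 90 of the 114 models (78.9%), against 36.5% of all tested models. Replicate 3 was the highest 48 h library in 101 models (88.6%), against 35.1% of all. Replicate 2 was the lowest 72 h library in 86 models (75.4%), against 35.0% of all. These 3 orders held at once in 69 of the 114 models (60.5%), in 6.96% of the 718 and in 5.72% of all tested models. The orders were picked after the medians had been seen, and models of 1 library share that library, so no test is given. The 24 h libraries also served to choose the models as low. The 24 h order, and with it the share with all 3 orders, is thus not independent of the choice.

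The spread between libraries had the same course. The coefficient of variation over 3 libraries had a median over the 114 models of 17.0%, 17.1% and 11.5% over 24, 48 and 72 h in order, against 7.27%, 7.07% and 7.96% over all tested models. At 0 h it was 5.15%, against 8.29% over all tested models, and at 96 h it was 4.90%, against 6.12%. The wide spread thus occurred at 24, 48 and 72 h, and the spread at 0 and 96 h was below that of models at large. The SD of the library medians was 0.188, 0.231 and 0.106 in the 114 models over 24, 48 and 72 h in order, against 0.0070, 0.0034 and 0.016 in the 718 models (n = 3 libraries each).

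The 3 libraries standing apart held the fewest or the most reads of their time. Within a time, the order of the library medians followed that of the reads at 24 and 96 h, and not at 0, 48 and 72 h. At 96 h, replicates 1, 2 and 3 held 30707808, 30536622 and 17381483 reads, with medians of 0.24, 0.20 and 0.16. At 24 h, replicate 3 held nearly as few reads as replicate 1, with a median over the 114 models of -0.81 against -1.11. At 72 h, replicate 3 held the most reads with a median of -0.10, against -0.08 in replicate 1. Recovered reads numbered 16435841 to 30707808 in the irradiated libraries, against 9749391 to 13801926 in those of 0 h. The low replicate 1 of 24 h held the fewest reads of its time (16435841, with 24765138 and 16453279 in replicates 2 and 3). The high replicate 3 of 48 h held the most (29148526, with 25805867 and 19917638 in replicates 1 and 2). The low replicate 2 of 72 h held the fewest (16714624, with 19702375 and 30682887 in replicates 1 and 3). The values are already relative to library size. The divisor behind the deposited values was 1.03 times the recovered reads in 24 h replicate 1, 0.990 times in 48 h replicate 3 and 0.974 times in 72 h replicate 2. The median over all tested models was -0.01, 0.03 and -0.01 in these libraries. Tested models of 2000 bases or more had medians of 0.01, 0.01 and 0.05 in replicates 1, 2 and 3 of 48 h. Long models at large were thus also highest in replicate 3, by a smaller amount. At 72 h their medians were 0.0444, -0.0135 and 0.0326, with replicate 2 the lowest here too. At 24 h they were -0.0367, -0.0437 and -0.0377, so replicate 1 was not the lowest. The part of length, depth and RNA quality in the shifts was not tested.

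Together the 114 models took 0.909% to 0.933% of the reads of the 0 h libraries. They took 0.433%, 0.552% and 0.536% in replicates 1, 2 and 3 of 24 h, and 0.774%, 0.818% and 1.002% in those of 48 h. At 72 h they took 0.939%, 0.713% and 0.849%, and at 96 h 1.09%, 1.11% and 1.07%. All 96 h libraries were above all 0 h libraries, with 1.09% ± 0.0231 at 96 h and 0.924% ± 0.0130 at 0 h (SD, n = 3 each). Both times were used in the choice of the models. These shares lean on the most abundant model, which alone held 42814 of the 125454 reads in 0 h replicate 1. In 96 h replicate 2 it held 110294 of the 339451 reads.

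The most abundant model, of 5986 bases, was singled out after its values were seen. It stood at 516, 524 and 538 RPKM in replicates 1, 2 and 3 of 0 h, at 253, 343 and 324 RPKM in those of 24 h, and at 452, 522 and 555 RPKM in those of 48 h. At 72 h it stood at 599.8, 405 and 462 RPKM, and at 96 h at 583, 596 and 567 RPKM. Its 24 h libraries lay below all others, and its libraries spread most at 72 h.

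How far each model had returned was expressed as a share of its rise between 24 and 96 h on the log2 scale. This share had a median of 0.72 at 48 h and of 0.70 at 72 h, or 0.57 and 0.74 without the 3 libraries standing apart. Leaving out 48 h replicate 3 alone gave 0.62 for 48 h. The share was at least 0.75 at 48 h in 54 models (47.4%), from 0.25 to below 0.75 in 59 (51.8%), and 0.22 in a single one. These numbers rest on 48 h replicate 3, without which they were 15, 88 and 11. Without all 3 libraries standing apart they were 11, 90 and 13, so the models were not divided further by timing.

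Means at 72 h were below those at 48 h in 75 models and above in 39, a split that changed with single libraries. Without 48 h replicate 3 they were below in 31 models, without 72 h replicate 2 in 56 and without both in 15. These libraries were picked as high at 48 h and low at 72 h, so the pick itself makes such falls fewer. A mean that rose at each step through 48, 72 and 96 h was seen in 35 models, with median changes against 0 h of -0.21, -0.04 and 0.30. In 75 models the mean dipped at 72 h, with medians of -0.10, -0.21 and 0.16. The other 4 were highest at 72 h among these 3 times.

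**Figure D4:**
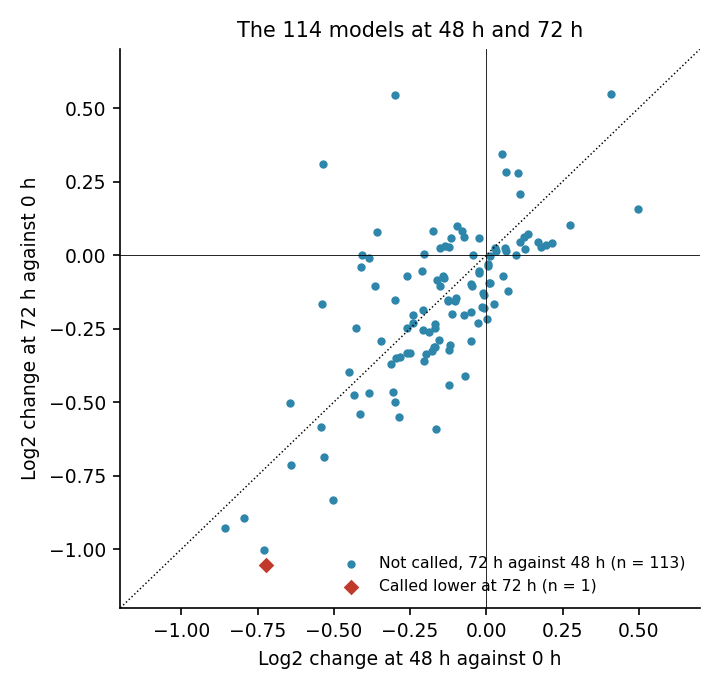
Log2 change of mean RPKM against 0 h at 72 h (vertical) and at 48 h (horizontal) for the 114 models, with a dotted line of equal changes. A single model (red diamond) was called lower at 72 h than at 48 h by limma at an adjusted p below 0.05, and 78 models at 48 h and 72 at 72 h lay within 0.25 of the 0 h level.

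SMED30012534 and SMED30015902 had the lowest changes at 24 h among models with at least 5 RPKM at 0 h, and returned only in part. SMED30012534, of 1088 bases, stood at 36.2, 34.0 and 34.4 RPKM in replicates 1, 2 and 3 of 0 h and at 9.58, 13.8 and 13.1 RPKM in those of 24 h. It stood at 17.4, 18.3 and 21.4 RPKM in those of 48 h, at 20.2, 16.5 and 17.5 RPKM in those of 72 h and at 19.7, 21.4 and 20.0 RPKM in those of 96 h. All libraries from 48 h on lay above every 24 h library and below every 0 h library. The fitted log2 change for 48 against 24 h was 0.64 with an SE of 0.11, and carries no test since the 24 h level picked the model. For 72 against 48 h limma gave -0.07 with an SE of 0.11 (adjusted p = 0.867).

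SMED30015902, of 404 bases, stood at 42.0, 38.9 and 41.1 RPKM in replicates 1, 2 and 3 of 0 h and at 14.1, 14.2 and 14.4 RPKM in those of 24 h. It stood at 22.6, 23.4 and 27.3 RPKM in those of 48 h, at 21.3, 17.8 and 18.9 RPKM in those of 72 h and at 23.4, 26.5 and 22.1 RPKM in those of 96 h. Here too, every library from 48 h on lay between those of 24 h and those of 0 h. The fitted log2 change for 48 against 24 h was 0.75 with an SE of 0.08, and carries no test since the 24 h level picked the model. This is the model called lower at 72 h than at 48 h, by -0.33 with an SE of 0.08 (limma adjusted p = 0.0456), and all 3 libraries of 72 h lay below all 3 of 48 h. The call was lost in 13 of the 16 fits that left out libraries and in 3 of the 7 other alternatives, with adjusted p from 0.0173 to 0.41 over all of them.

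SMED30010476 and SMED30013479 had the largest returns among models with at least 5 RPKM at 0 h, and their means at 96 h were above those at 0 h. SMED30010476, of 1727 bases, stood at 5.27, 5.08 and 5.04 RPKM in replicates 1, 2 and 3 of 0 h and at 1.13, 1.51 and 1.96 RPKM in those of 24 h, from 33, 64 and 56 reads. It stood at 9.49, 7.63 and 5.22 RPKM in those of 48 h, at 6.79, 5.76 and 4.77 RPKM in those of 72 h and at 9.87, 6.46 and 5.33 RPKM in those of 96 h. Unlike most of the models, it was highest in replicate 1 and lowest in replicate 3 at 48 h, and also at 72 and 96 h. The fitted log2 change for 48 against 24 h was 1.95 with an SE of 0.22, and carries no test since the 24 h level picked the model. For 72 against 48 h limma gave -0.32 with an SE of 0.22 (adjusted p = 0.614).

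SMED30013479, of 2070 bases, stood at 8.75, 8.28 and 7.55 RPKM in replicates 1, 2 and 3 of 0 h and at 2.09, 4.83 and 3.98 RPKM in those of 24 h. It stood at 8.59, 8.26 and 9.71 RPKM in those of 48 h, at 9.48, 11.4 and 9.30 RPKM in those of 72 h and at 12.1, 11.5 and 14.4 RPKM in those of 96 h. Every library of 72 and 96 h lay above every 0 h library. The fitted log2 change for 48 against 24 h was 1.24 with an SE of 0.19, and carries no test since the 24 h level picked the model. For 72 against 48 h limma gave 0.17 with an SE of 0.19 (adjusted p = 0.796).

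**Figure D5:**
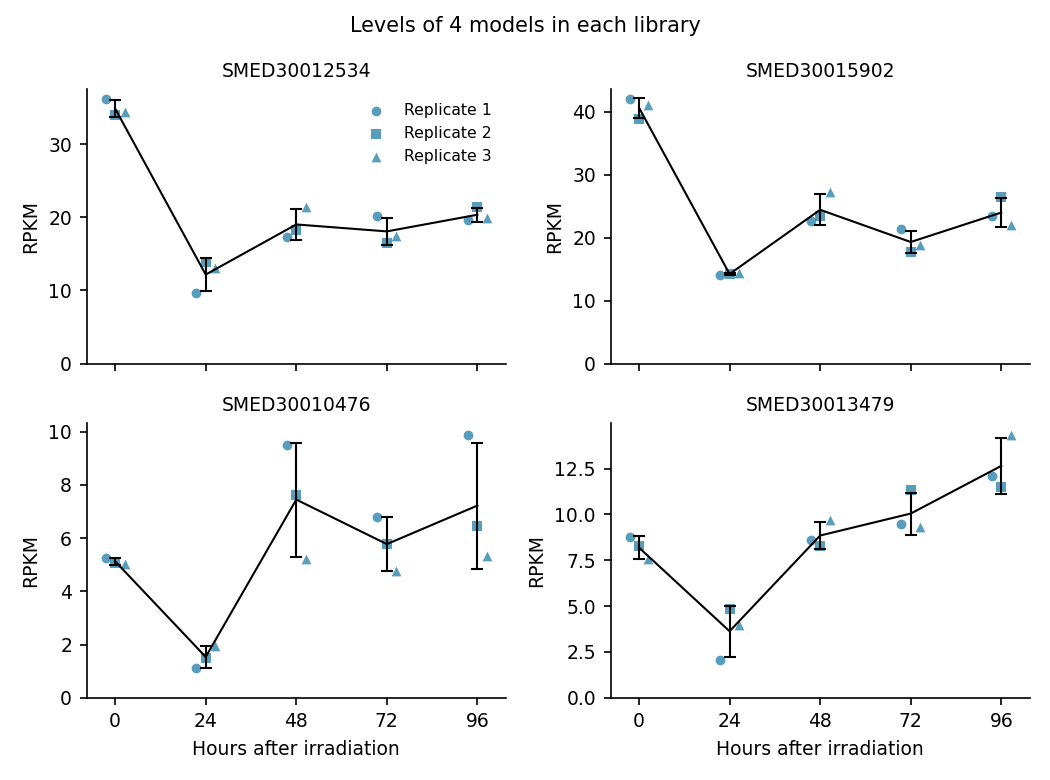
RPKM of 4 models by hours after irradiation, in each library (symbols by replicate number), with the mean and SD of 3 libraries as line and bars. SMED30012534 and SMED30015902 stayed below their 0 h level at every later time, while SMED30010476 and SMED30013479 had means above it at 96 h (7.22 and 12.7 RPKM at 96 h, 5.13 and 8.19 RPKM at 0 h).

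The 114 models were longer than models at large. Their lengths, worked out from the steps of the RPKM values, spanned 97 to 14040 bases, the median being 1966 bases, against 1282.5 bases in the 718 and 1129 bases in all tested models. A length of 2000 bases or more was found in 57 of the 114 (50.0%), in 24.7% of the 718 and in 22.1% of all tested models. Their median 0 h level was 12.2 RPKM, against 8.62 RPKM in the 718 and 6.72 RPKM in all tested models. The floor on the 0 h level applied to the 114 and the 718 but not to all tested models.

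Short and long models had close medians at 24 h and less close ones at 48 h. The 33 models under 1000 bases had median changes of -0.87, -0.24, -0.23 and 0.19 over the 4 irradiated times in order, and the 57 of 2000 bases or more of -0.86, -0.05, -0.10 and 0.23. Replicate 3 was the highest 48 h library in 25 of the 33 short and 54 of the 57 long models, against 29.6% of all short and 50.9% of all long tested models. Replicate 1 was the lowest 24 h library in 19 and 53 of them, against 35.6% and 37.3% of all. Replicate 2 was the lowest 72 h library in 16 and 49, against 33.2% and 44.7% of all. The 24 h libraries were used in the choice of the models, and the difference between short and long models was not tested.

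By level, 21 models were under 5 RPKM at 0 h, 50 from 5 to under 20 RPKM and 43 at 20 RPKM or more. Their median changes were -0.78, -0.87 and -0.88 for 24 h, and -0.26, -0.13 and -0.10 for 48 h. The reads behind a value limit the lowest of these, since a model had between 2 and 50349 reads in a 24 h library, with a median of 279.

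The 92 models above the 0 h mean at 96 h had a median change of -0.84 at 24 h, and the 22 at or below it had -1.08. At 48 h, 4 of the 92 and 12 of the 22 were called lower than in unirradiated worms, where 19.5% of all tested models were. At 72 h these counts were 7 and 18, where 21.5% of all were called lower. The split uses the 0 and 96 h means, which also served to choose the models. The 0 h level enters all of these values, so the relation is a description only.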

How the data were processed

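The authors deposited RPKM values per transcript model for 15 libraries (Illumina TruSeq kit, polyA RNA of whole worms, per the labels' protocols). CASAVA 1.8.2, Bowtie and edgeR appear in the submitters' processing notes, without a role. How shared reads were handled, and on which transcript set and strand, was not given in the sources used here, so similar, overlapping or antisense models may share reads. RPKM is relative to its own library and does not show RNA per worm.

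Steps in the RPKM values, set by model length and library, gave whole reads, lengths and divisors for all 26671 models within 0.001 reads (simulated reads: 100% of 4000 models exact). Replicates differed by more than sampling noise (chi-square per degree of freedom 1.38 to 5.11). Models reaching 1 RPKM in 3 or more libraries were tested (21231, 79.6%), including all 114 members and all 718 others. Limma 3.58.1 (R 4.3.3, variance trend, two-sided) was fitted to log2(RPKM + 0.5), with Benjamini-Hochberg adjusted p below 0.05 over all tested models as the call. Limma was also run on simulated reads that varied independently between models. Shifts shared by the models of a library were not simulated, so that run does not cover them. Fitted changes are differences of mean logs, not log ratios of means. Counts, medians and figures used Python 3.11.15, numpy 2.4.6, pandas 2.3.3 and matplotlib 3.10.9.

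Members, comparison sets and tests were chosen with earlier results of these data known. The 96 against 72 h contrast, the library orders and the values without the libraries standing apart were added after seeing the data. By rule 4 models were named: at 5 RPKM or more at 0 h, the 2 lowest at 24 h and the 2 with the largest return. Pseudocount, filter, normalization, libraries and a replicate term were varied. With no gene names, no gene lists or cell type markers were used.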

Additional observations from a re-analysis of the deposited data

Results flagged for a closer look

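The log2 change of SMED30015902 between 72 and 48 h was -0.33. It stood out because a direct limma contrast of the 2 times passed the threshold, so that its changes against 0 h differed between them. With 3 libraries per time, single libraries were not screened as outliers.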

How the results depend on the processing

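The rule took 88 to 147 models when libraries were left out, and 89 to 146 with another pseudocount, floor, average or normalization. With libraries left out, the median change ran from -0.27 to -0.05 at 48 h and from -0.19 to -0.07 at 72 h. Calls higher at 48 than at 24 h ran from 76 to 94, and from 84 to 96 under the other alternatives. Calls higher at 72 than at 48 h were 0 throughout, except for 5 without 24 h replicate 1, 48 h replicate 3 and 72 h replicate 2 together. The single lower call became 0 with no filter, with the 6 libraries compared and with the replicate block, and was 0 to 1 with libraries left out. The change of SMED30012534 at 72 against 48 h ran from -0.15 to 0.0754, and was 0.0153 without 48 h replicate 3. Calls lower than at 0 h ran from 10 to 58 at 48 h and from 12 to 36 at 72 h, with 16 at 72 h after quantile normalization. Calls higher at 96 than at 72 h ran from 5 to 37, with 57 by limma-voom. Same-numbered libraries showed little shared deviation (correlations of -0.0628 to 0.11 over 30 pairs, 1 of them above 0.1). The labels do not tell whether the numbers pair the samples, and weak correlations cannot settle it. The replicate block gave 95 calls higher at 48 than at 24 h, 0 in either direction between 72 and 48 h, 18 below the 0 h level for 48 h, 30 for 72 h, and 27 higher at 96 than at 72 h. Shares over all tested models are not given for any of these alternative fits, so their counts cannot be set against models at large. The planned edgeR test was not run, and limma-voom on the recovered reads was run in its place. The cause of these shifts was not tested. Depth limits the models with few reads at 24 h.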
